A study of Homo sapiens with 6 samples.

Results

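The 10 genes FAS, TNFRSF10A, TNFRSF10B, TNFRSF10D, TNFRSF25, TNFRSF1A, TNFSF10, FADD, CASP8 and CFLAR encode a death ligand, its receptors and related death receptors, and the proteins of the complex in which caspase-8 is activated. They were taken by symbol from 2 tables of comparisons that the authors deposited, and all 10 were found once in each table among 33095 genes. The cells were MM.1S, an established human multiple myeloma line, transduced with lentivirus for anti-IRF3 shRNA 1, anti-IRF3 shRNA 2 or a scramble control and grown in RPMI medium with serum. Each arm had 2 libraries, 6 in all, of poly(A)-enriched RNA. IRF3 is a transcription factor that becomes active when foreign nucleic acid is sensed and drives interferon genes. All arms carried a lentiviral hairpin, so none was an untransduced control. The labels name no clone, time after transduction or separate culture, so the p-values reflect the spread among libraries only, and that spread may be technical.

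Death receptors are members of the TNF receptor superfamily with a cytoplasmic death domain. When a trimeric ligand such as TRAIL or FAS ligand gathers them, the adaptor FADD binds the death domain and recruits procaspase-8 through death effector domains, and the caspase is activated by proximity. CFLAR (FLIP) is a catalytically inactive relative of caspase-8 that enters the same complex and can hold its activation back. In plasma cells and myeloma the TRAIL receptors have been studied as a route to kill the tumour, and several genes of the pathway are known targets of NF-kappaB or interferon signalling.

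The deposited values were the mean normalised read count over all libraries and, per comparison, a log2 fold change of hairpin over scramble with its standard error (SE) and a DESeq2 adjusted p. A gene was called at an adjusted p below 0.05 over the whole table. No value of a single library is held by these tables, so library depth is unknown and no spread between replicates can be shown. The level of a gene in each arm was instead reconstructed from the mean of all arms and both fold changes, and such values are named as reconstructed means. For IRF3 itself, the reconstructed mean was 974 with shRNA 1 and 2476 with shRNA 2, against 2809 normalised counts with scramble. The authors' deposited tables give IRF3 -1.53 ± 0.10 (SE, DESeq2 adjusted p = 8.45e-46) with shRNA 1 and -0.18 ± 0.10 (adjusted p = 0.181) with shRNA 2. A fall of the targeted transcript was thus called with shRNA 1 and not in the libraries labelled shRNA 2, to which every value given with shRNA 2 refers. The 9 plasma cell markers had means of 1665 to 31453 normalised counts in the authors' deposited tables. Of the other lineages, the T cell (4 of 5 listed), B cell (4 of 4), myeloid (4 of 4) and epithelial or fibroblast markers (4 of 5) reached at most 88.7, with the B cell gene MS4A1 at 3.82 and the monocyte gene CD14 at 6.07. The plasma cell markers, 9 of 9 listed, had summed reconstructed means of 105347 with shRNA 1 and 94531 with shRNA 2, against 143274 with scramble. The myeloid markers summed to reconstructed means of 188 with shRNA 1 and 112 with shRNA 2, against 41.9 normalised counts with scramble, and the T cell markers to 107 with shRNA 1 and 79.8 with shRNA 2, against 53.4 with scramble. Most of the myeloid sum was 1 gene, the integrin subunit ITGAM, with reconstructed means of 156 with shRNA 1 and 88.4 with shRNA 2, against 21.7 with scramble, which rose by 2.85 ± 0.44 (SE, DESeq2 adjusted p = 1.98e-09) with shRNA 1 and 2.03 ± 0.44 (adjusted p = 3.32e-05) with shRNA 2 in the authors' deposited tables. Most of the T cell sum was CD3E, at 84.4 with shRNA 1 and 53.7 with shRNA 2, against 33.2 with scramble. The part of these marker levels in the results below was not tested. In bulk RNA, fewer cells with a transcript and less of it per cell cannot be told apart.

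The start regions of 4 of these genes are shown as examples, picked by hand among windows with short sequences that the pathway's known transcription factors recognise. The table of promoters from RefSeq (GRCh38.p14), each of 250 bases before and 50 after an annotated start, holds 14 windows for 7 of the genes. It holds none for TNFRSF10A, TNFRSF10B or TNFRSF10D, so the matches below do not cover these genes. The capitals in the windows of CASP8 (chr2:201233213-201233512, plus strand) and TNFSF10 (chr3:172523381-172523680, minus strand) mark a match, read on the opposite strand, to GAAANNGAAA, the interferon-stimulated response element bound by IRF proteins. Those in FAS (chr10:88991181-88991480, plus strand) and TNFRSF25 (chr1:6466124-6466423, minus strand) mark a match to the kappaB element of NF-kappaB.
CASP8: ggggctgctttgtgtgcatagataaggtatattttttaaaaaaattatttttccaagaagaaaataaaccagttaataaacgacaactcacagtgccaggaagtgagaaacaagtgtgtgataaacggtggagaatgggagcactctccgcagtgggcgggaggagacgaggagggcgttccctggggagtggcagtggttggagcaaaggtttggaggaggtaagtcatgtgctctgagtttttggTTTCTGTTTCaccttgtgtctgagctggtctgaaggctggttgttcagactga
TNFSF10: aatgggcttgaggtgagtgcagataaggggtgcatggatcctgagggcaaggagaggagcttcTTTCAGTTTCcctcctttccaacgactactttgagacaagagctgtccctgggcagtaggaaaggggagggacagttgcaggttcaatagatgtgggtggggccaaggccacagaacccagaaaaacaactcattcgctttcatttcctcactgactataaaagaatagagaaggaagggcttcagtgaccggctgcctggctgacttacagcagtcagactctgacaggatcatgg
FAS: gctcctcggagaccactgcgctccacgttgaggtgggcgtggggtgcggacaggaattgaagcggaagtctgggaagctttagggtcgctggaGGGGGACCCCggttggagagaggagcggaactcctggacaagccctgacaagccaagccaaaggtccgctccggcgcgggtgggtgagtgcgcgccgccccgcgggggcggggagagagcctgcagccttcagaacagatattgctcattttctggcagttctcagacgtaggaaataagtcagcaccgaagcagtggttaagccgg
TNFRSF25: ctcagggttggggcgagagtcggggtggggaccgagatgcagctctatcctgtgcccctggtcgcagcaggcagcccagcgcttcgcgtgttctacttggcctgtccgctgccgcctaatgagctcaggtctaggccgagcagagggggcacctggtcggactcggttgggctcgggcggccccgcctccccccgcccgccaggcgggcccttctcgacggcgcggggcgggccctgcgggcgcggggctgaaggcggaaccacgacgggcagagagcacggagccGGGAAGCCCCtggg

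The IRF-type match began 3 bases before the annotated start in CASP8 and ended 7 bases after it, and in TNFSF10 it lay 187 to 178 bases before the start. Matches on either strand were present in 2 of the 14 windows, and in 3.57% of all 35116 windows of the RefSeq table. The kappaB element was matched in 3 of the 14 windows (FAS, TNFRSF25 and CFLAR), against 11.3% of all windows. FAS has further windows without this match, and the CFLAR window is not shown. The element lay 157 to 148 bases before the start in FAS and 97 to 88 bases before it in CFLAR, where it overlapped a GC box. In TNFRSF25 it lay 37 to 46 bases after the start. The GC box GGGCGG of SP1, also searched on both strands, was matched in 8 of the 14 windows, against 45.0% of all windows. A match describes the letters of the window and is no evidence that a factor is bound there.

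With shRNA 1, 6 of the 10 genes rose and 1 fell, and with shRNA 2, 5 rose and 0 fell, at a DESeq2 adjusted p below 0.05 in the authors' deposited tables. Over all genes with an adjusted p, 9.80% rose and 14.8% fell of 14488 with shRNA 1 (24.6% called in all), and 10.9% rose and 18.1% fell of 17054 with shRNA 2 (29.0% called in all). The median log2 fold change of the 10 genes was 0.45 with shRNA 1 and 0.25 with shRNA 2, beside -0.03 and -0.0026 over all genes tested. TNFRSF10B, TNFRSF10D, FAS and CASP8 passed in each comparison, and the ligand TNFSF10 and the adaptor FADD in neither. Both comparisons use the same 2 scramble libraries, so their values are set side by side below and one does not support the other.

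**Figure D1:**
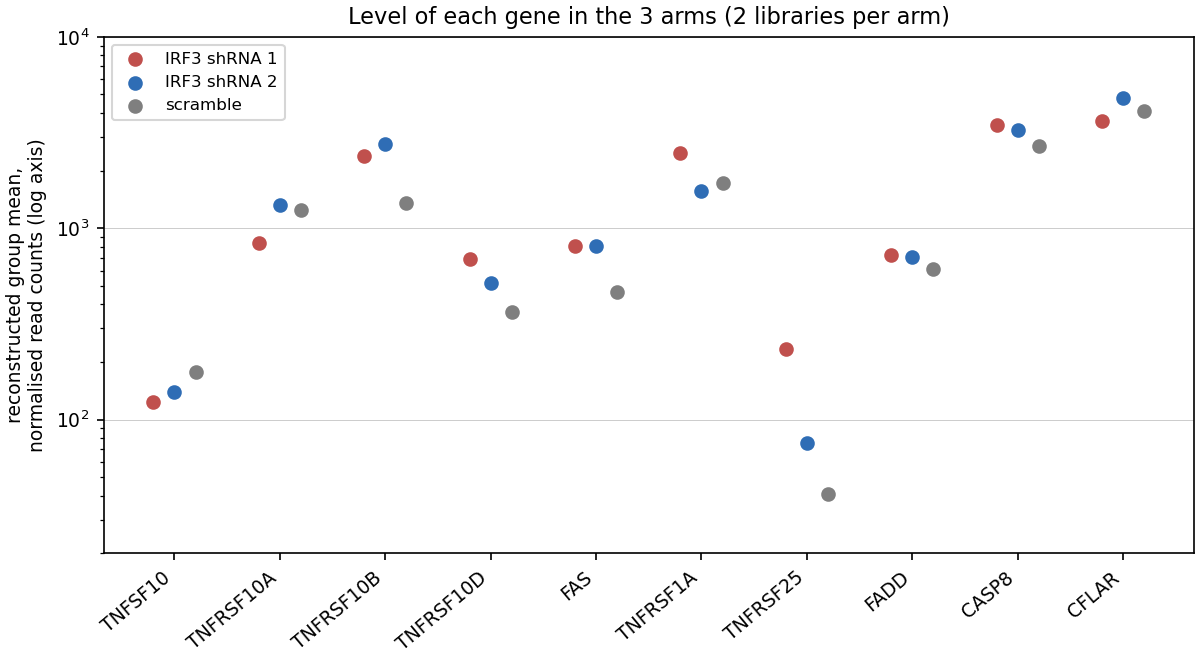
Reconstructed mean normalised read count (log axis) of each gene in the IRF3 shRNA 1, IRF3 shRNA 2 and scramble arms, 2 libraries per arm, with 1 point per arm and no error bar because single libraries are not given. TNFRSF10B, TNFRSF10D, FAS, TNFRSF25, FADD and CASP8 have their scramble point lowest, and TNFSF10 has it highest; heights of different genes are not comparable, since counts grow with transcript length.

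The ligand TNFSF10 (TRAIL; chromosome 3, 172505508 to 172523507, minus strand, GRCh38 with GENCODE 29) was a low transcript, with reconstructed means of 123 with shRNA 1 and 139 with shRNA 2, against 177 normalised counts with scramble. The authors' deposited table gives it -0.52 ± 0.28 (SE) with shRNA 1, which did not pass (DESeq2 adjusted p = 0.179). With shRNA 2 it stood at -0.35 ± 0.28 (adjusted p = 0.402), also per the authors' deposited table. Both estimates lay below scramble, but the 95% intervals of the ratio ran from 0.476 to 1.02 with shRNA 1 and from 0.537 to 1.15 with shRNA 2. A moderate fall of TRAIL mRNA could therefore not be detected with these libraries.

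The TRAIL receptors did not move as one. TNFRSF10A (DR4) and TNFRSF10B (DR5) carry functional death domains and transmit the TRAIL signal, while TNFRSF10D (DcR2) has a truncated one and acts as a decoy. These 3 genes and the decoy gene TNFRSF10C lie within 205 kilobases of each other on one chromosome. Words of 31 bases shared between transcripts of the 4 receptors made up at most 1.64% of the words of any of them, and 0.204% for TNFRSF10A. Words shared with any other gene, on either strand, made up more. These were 17.2% for TNFRSF10A, 4.37% for TNFRSF10B, 4.36% for TNFRSF10D and 38.3% for TNFRSF10C.

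TNFRSF10B had reconstructed means of 2392 with shRNA 1 and 2765 with shRNA 2, against 1362 normalised counts with scramble. The receptor rose in each comparison. In the authors' deposited tables its log2 fold change was 0.81 ± 0.11 (SE, DESeq2 adjusted p = 2.31e-12) with shRNA 1, a ratio of 1.76 with a 95% interval of 1.52 to 2.03. With shRNA 2 it was 1.02 ± 0.11 (adjusted p = 1.27e-19) per the authors' deposited table, a ratio of 2.03 (1.75 to 2.35). Among all tested genes this increase ranked 563 of 14488 with shRNA 1 and 841 of 17054 with shRNA 2, by log2 fold change.

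TNFRSF10A went the other way with shRNA 1. Its reconstructed means were 837 with shRNA 1 and 1325 with shRNA 2, against 1243 normalised counts with scramble. Per the authors' deposited table, it fell by 0.57 on the log2 scale (SE 0.12, DESeq2 adjusted p = 2.26e-05) with shRNA 1, to 0.673 times the scramble level (95% interval 0.573 to 0.791). With shRNA 2 the authors' deposited value was 0.09 ± 0.12 (adjusted p = 0.643), with a ratio between 0.909 and 1.25 at 95%. The antisense transcripts AC100861.1 and TNFRSF10A-AS1 share 9.01% and 7.59% of its annotated exonic bases. Neither passed in either comparison, with AC100861.1 at -0.21 ± 0.26 and 0.16 ± 0.25 and TNFRSF10A-AS1 at -0.72 ± 0.43 and -0.08 ± 0.42 (SE) with shRNA 1 and shRNA 2 in the authors' deposited tables.

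TNFRSF10D, the decoy, had reconstructed means of 690 with shRNA 1 and 520 with shRNA 2, against 365 normalised counts with scramble. It rose in each comparison, at 0.92 ± 0.17 (SE, DESeq2 adjusted p = 1.21e-06) with shRNA 1 and 0.51 ± 0.17 (adjusted p = 0.0129) with shRNA 2 in the authors' deposited tables. The ratios were 1.89 (95% interval 1.50 to 2.38) and 1.42 (1.13 to 1.80). The other decoy, TNFRSF10C, was barely detected, with a mean of 14.5 normalised counts over all libraries in the authors' deposited tables.

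Because the 2 signalling receptors moved apart with shRNA 1, the ratio of TNFRSF10B to TNFRSF10A was also computed, which does not depend on transcript length. It changed 2.61-fold over scramble with shRNA 1 (95% interval 2.10 to 3.24) and 1.90-fold with shRNA 2 (1.53 to 2.36). The ratio of the decoy TNFRSF10D to TNFRSF10B changed 1.08-fold with shRNA 1 (0.819 to 1.41) and 0.701-fold with shRNA 2 (0.533 to 0.922). Decoy and DR5 transcripts thus kept a ratio with shRNA 1 whose interval includes no change, whereas with shRNA 2 the decoy increased less than DR5. These intervals treat the 2 genes as independent, were computed from the authors' deposited values after those were seen, and are given without a test.

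FAS (CD95; chromosome 10, 88990582 to 89015785, plus strand) is the receptor of FAS ligand. Its reconstructed means were 805 with shRNA 1 and 810 with shRNA 2, against 462 normalised counts with scramble. FAS rose in each comparison and by nearly equal amounts. The authors' deposited tables give 0.80 ± 0.16 (SE, DESeq2 adjusted p = 7.62e-06) with shRNA 1, a ratio of 1.74 (95% interval 1.40 to 2.16), and 0.81 ± 0.16 (adjusted p = 3.82e-06) with shRNA 2, a ratio of 1.75 (1.41 to 2.18). The muscle actin gene ACTA2 on the opposite strand shares 380 of its exonic bases, 8.93% of the annotated total. ACTA2 had a mean of 14.7 normalised counts, against 692 for FAS, and stood at 2.62 ± 1.02 with shRNA 1 and 2.44 ± 1.03 (SE) with shRNA 2 in the authors' deposited tables.

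TNFRSF1A and TNFRSF25, which act through the adaptor TRADD, rose with shRNA 1. TNFRSF1A (TNFR1; chromosome 12, 6328757 to 6342114, minus strand), which signals both survival and death in response to TNF, had reconstructed means of 2472 with shRNA 1 and 1561 with shRNA 2, against 1720 normalised counts with scramble. It rose by 0.52 ± 0.11 (SE, DESeq2 adjusted p = 1.23e-05) with shRNA 1 in the authors' deposited table, which is a ratio of 1.44 (95% interval 1.24 to 1.66). With shRNA 2 it stood at -0.14 ± 0.11 (adjusted p = 0.374) per the authors' deposited table, a ratio between 0.785 and 1.05 at 95%.

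TNFRSF25 (DR3; chromosome 1, 6460786 to 6466195, minus strand), the receptor of TNFSF15 in lymphocytes, had the largest log2 fold change of the 10 genes with shRNA 1, whereas with shRNA 2 that of TNFRSF10B was larger. Its reconstructed means were 235 with shRNA 1 and 75.2 with shRNA 2, against 40.9 normalised counts with scramble. The authors' deposited table gives 2.52 ± 0.36 (SE, DESeq2 adjusted p = 1.24e-10) with shRNA 1, a ratio of 5.74 (95% interval 3.51 to 9.38). That increase ranked 12 of the 14488 genes tested. With shRNA 2 the authors' deposited value was 0.88 ± 0.37, which did not pass (adjusted p = 0.0580), with a ratio of 1.84 (1.11 to 3.04). The call with shRNA 2 turned on the centring: with fold changes recentred on the median gene it passed (adjusted p = 0.0452), while without the authors' filter on low genes its adjusted p was 0.111. PLEKHG5, its neighbour on the same strand, shares 2.43% of the exonic bases and stood at 0.14 ± 0.48 with shRNA 1 and 0.32 ± 0.48 (SE) with shRNA 2 in the authors' deposited tables, neither of which passed. ESPN on the opposite strand shares 8.94% and had a mean of 2.04 normalised counts in the authors' deposited tables. Of the TNFRSF25 words of 31 bases, 13.1% were shared with transcripts of other genes. The tables sum the many splice forms of TNFRSF25, FAS, CASP8 and CFLAR, so full-length, soluble, long and short forms were not separated.

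Inside the complex the changes with shRNA 1 were smaller in size than those of the receptors. With shRNA 2 this did not hold for TNFRSF10A (0.09) and TNFRSF1A (-0.14). FADD (chromosome 11, 70203163 to 70207390, plus strand), the adaptor, had reconstructed means of 726 with shRNA 1 and 707 with shRNA 2, against 613 normalised counts with scramble. It passed in neither comparison, at 0.25 ± 0.14 (SE, DESeq2 adjusted p = 0.230) with shRNA 1 and 0.21 ± 0.14 (adjusted p = 0.319) with shRNA 2 in the authors' deposited tables. At 95% its ratio to scramble lay between 0.974 and 1.44 with shRNA 1 and between 0.948 and 1.41 with shRNA 2, which leaves out a change as large as that of FAS at its estimate. An antisense transcript, AP000879.1, covers 54.9% of its exonic bases and had a mean of 4.13 normalised counts in the authors' deposited tables.

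CASP8 (chromosome 2, 201233443 to 201287711, plus strand), the initiator caspase, rose modestly in each comparison. Its reconstructed means were 3480 with shRNA 1 and 3260 with shRNA 2, against 2677 normalised counts with scramble. The authors' deposited tables give 0.38 ± 0.09 (SE, DESeq2 adjusted p = 0.000234) with shRNA 1 and 0.28 ± 0.09 (adjusted p = 0.00697) with shRNA 2. The ratios were 1.30 (95% interval 1.15 to 1.47) and 1.22 (1.08 to 1.37).

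CFLAR (FLIP; chromosome 2, 201116104 to 201176687, plus strand), the inhibitor, lies 56.8 kilobases upstream of CASP8. Its reconstructed means were 3646 with shRNA 1 and 4785 with shRNA 2, against 4096 normalised counts with scramble. With shRNA 1 it stood at -0.17 ± 0.09 (SE, DESeq2 adjusted p = 0.153) and was not called, and with shRNA 2 it rose by 0.22 ± 0.09 (adjusted p = 0.0345) in the authors' deposited tables. The call with shRNA 2 was lost without the authors' filter on low genes (adjusted p = 0.0665) and kept on recentring (adjusted p = 0.00993). Of the CFLAR words of 31 bases, 23.2% were shared with transcripts of other genes. The pseudogene IMPDH1P10 on the opposite strand shares 6.60% of the CFLAR exonic bases and passed in neither comparison. The ratio of CFLAR to CASP8 was 0.685 times that of scramble with shRNA 1 (95% interval 0.578 to 0.811) and 0.960 times with shRNA 2 (0.811 to 1.14). The balance of inhibitor and caspase transcripts was thus lower with shRNA 1, while its interval with shRNA 2 includes no change; the limits given for the receptor ratios apply here too.

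**Figure D2:**
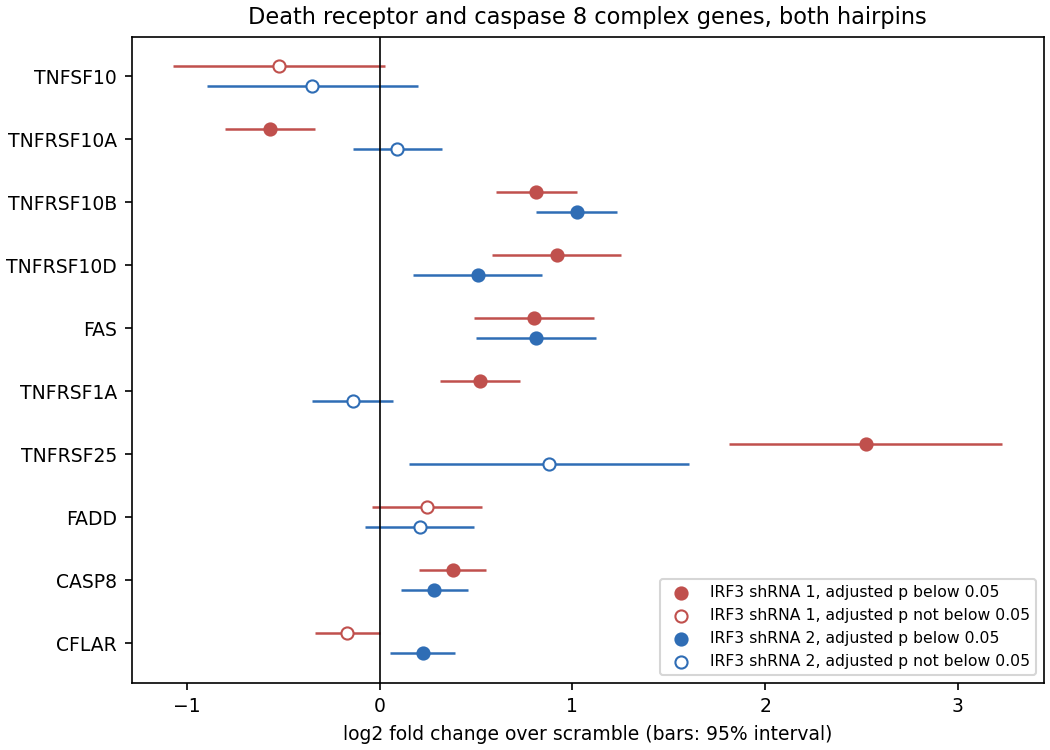
Log2 fold change over scramble of each gene (points) with its 95% interval (bars) for IRF3 shRNA 1 and IRF3 shRNA 2, from the authors' deposited values; filled points have an adjusted p below 0.05. TNFRSF10B, TNFRSF10D, FAS and CASP8 are filled and to the right of 0 for each hairpin, and TNFRSF25 with shRNA 1 lies farthest out at 2.52.

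The hairpins were then compared with each other, by a two-sided z test of the difference of the 2 log2 fold changes on the authors' deposited values, with Benjamini-Hochberg adjustment over 12977 genes with a mean of 50 or more. Of the 10 genes, 2 were higher and 2 lower with shRNA 2 than with shRNA 1, where 27.0% of all tested genes differed (11.5% higher and 15.5% lower). TNFRSF10A was higher with shRNA 2 by 0.66 ± 0.17 (SE, adjusted p = 0.000605) on the log2 scale. CFLAR was higher with shRNA 2 by 0.39 ± 0.12 (adjusted p = 0.00738). TNFRSF1A was lower with shRNA 2, with a difference of -0.66 ± 0.15 (adjusted p = 0.000117), as was TNFRSF25, with a difference of -1.64 ± 0.52 (adjusted p = 0.00829). These are 3 receptors and the inhibitor of the complex.

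For the other 6 genes a difference was not shown, and the width of the interval varied. FAS differed by 0.0095 (95% interval -0.43 to 0.45) and CASP8 by -0.09 (-0.34 to 0.15) between shRNA 2 and shRNA 1. TNFRSF10B differed by 0.21 (-0.09 to 0.51) and FADD by -0.04 (-0.44 to 0.36). The interval of TNFSF10 was the widest of the 6, from -0.61 to 0.95. TNFRSF10D differed by -0.41 (-0.88 to 0.06), with an adjusted p of 0.215 that became 0.0353 when the SE was reconstructed for the shared scramble libraries; the plain SE counts those libraries for each hairpin and is therefore too large. With the reconstructed SE, 2 of the 10 genes were higher and 3 lower with shRNA 2 than with shRNA 1, where 43.7% of all tested genes differed (20.1% higher and 23.7% lower).

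**Figure D3:**
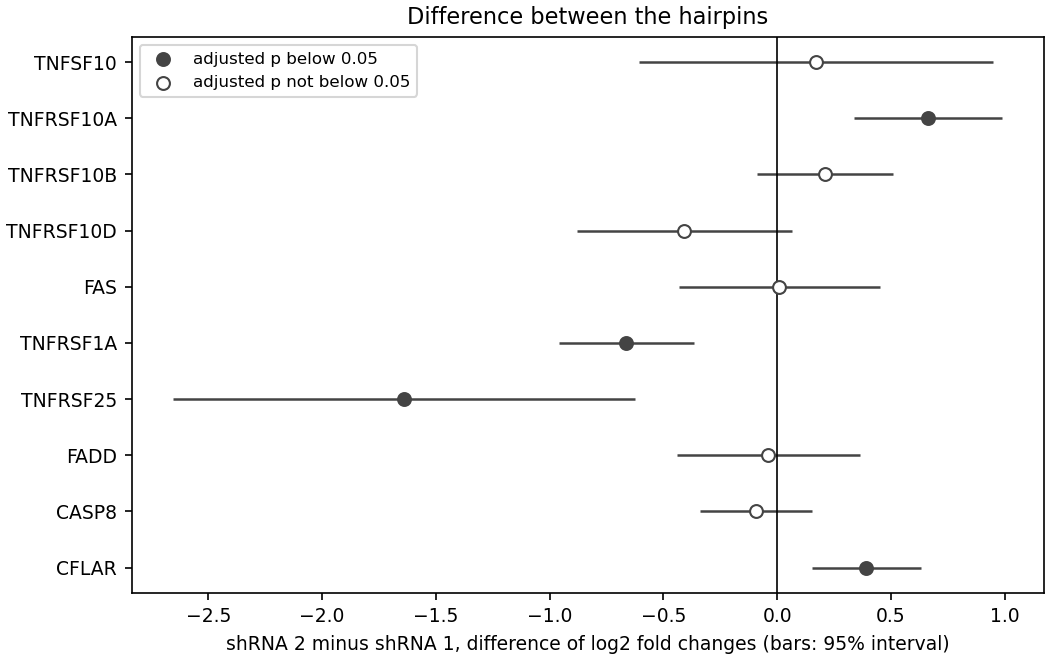
Difference of the log2 fold changes, shRNA 2 minus shRNA 1, for each gene (points) with its 95% interval (bars); filled points have an adjusted p below 0.05 in the z test. TNFRSF10A and CFLAR lie to the right of 0, TNFRSF1A and TNFRSF25 to the left.

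The rest of the pathway was described by 6 lists of other genes, named by role. As a scale for the first list, rises made up 9.80% of all genes tested for shRNA 1 and 10.9% for shRNA 2. Falls made up 14.8% and 18.1%, in the same order. Per the authors' deposited tables, of 19 genes of the TNF receptor complex and of necroptosis, 3 rose and 3 fell with shRNA 1 (median log2 fold change -0.0080) and 7 rose and 1 fell with shRNA 2 (median 0.19). TRADD, the adaptor of TNFR1 and DR3, rose by 0.50 ± 0.11 with shRNA 1 and 0.80 ± 0.10 with shRNA 2 (SE), and TRAF1, an NF-kappaB-induced signalling adaptor, by 0.92 ± 0.13 with shRNA 1 and 0.46 ± 0.14 with shRNA 2, per the authors' deposited tables. BIRC3 (cIAP2), a ubiquitin ligase of the complex, rose by 0.32 ± 0.10 with shRNA 1 and 0.26 ± 0.10 with shRNA 2 in the authors' deposited tables, the call with shRNA 2 being lost when low genes were kept. OTULIN, which removes linear ubiquitin chains, fell by 0.69 with shRNA 1 and by 0.43 with shRNA 2 on the log2 scale (SE 0.13 each) in the authors' deposited tables. The kinase RIPK1 and the linear ubiquitin ligase subunit RNF31 passed with shRNA 2 alone, at 0.35 ± 0.14 and 0.36 ± 0.14 in the authors' deposited table, against -0.18 ± 0.14 and -0.16 ± 0.14 with shRNA 1, and both calls were lost when low genes were kept. Both were named for a low p of the difference between shRNA 2 and shRNA 1, which passed the z test at 0.53 ± 0.19 (adjusted p = 0.0288) and 0.53 ± 0.20 (adjusted p = 0.0365). The necroptosis genes RIPK3 and MLKL passed in neither comparison, with adjusted p-values of 0.881 and 0.997 with shRNA 1 and 0.615 and 0.737 with shRNA 2 in the authors' deposited DESeq2 tables.

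Of 9 other death effector domain proteins and modulators of the complex, 2 rose and 2 fell of 8 tested with shRNA 1 (median 0.09), and 3 rose and 2 fell of 9 with shRNA 2 (median -0.11), per the authors' deposited tables. The shares over all genes tested were 9.80% and 14.8% with shRNA 1, and 10.9% and 18.1% with shRNA 2. PEA15, a death effector domain protein that can bind FADD and caspase-8, rose by 0.60 ± 0.10 with shRNA 1 and 0.47 ± 0.10 (SE) with shRNA 2 in the authors' deposited tables. DEDD2, a nuclear protein with the same domain, fell by 0.33 on the log2 scale (SE 0.12) with shRNA 1, a call lost on recentring and with low genes kept, and rose by 0.49 ± 0.12 with shRNA 2, per the authors' deposited tables. CASP8AP2 (FLASH), which is also needed for histone transcript processing, stood at -0.31 ± 0.14 with shRNA 1 (adjusted p = 0.0743) and fell by 0.65 (SE 0.14) with shRNA 2 per the authors' deposited tables. DEDD was at 0.19 ± 0.12 with shRNA 1 and rose by 0.35 ± 0.12 with shRNA 2 in the authors' deposited tables. The ubiquitin ligase ITCH, which can target FLIP, rose by 0.29 ± 0.10 with shRNA 1 and stood at -0.15 ± 0.10 with shRNA 2, and FAIM, named for its inhibition of FAS signalling, stood at 0.16 ± 0.32 with shRNA 1 and fell by 1.22 (SE 0.33) with shRNA 2, per the authors' deposited tables.

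Downstream of caspase-8, 17 genes of the execution arm were tested. With shRNA 1, 1 rose and 7 fell (median -0.14), beside 9.80% and 14.8% of all genes tested, and with shRNA 2, 2 rose and 5 fell (median -0.17), beside 10.9% and 18.1%, per the authors' deposited tables. Falls also outnumbered rises among all genes tested. XIAP, a direct inhibitor of caspases, fell by 0.56 (SE 0.13) with shRNA 1 and by 0.46 (SE 0.12) with shRNA 2 in the authors' deposited tables. BAX, the pore-forming effector of the mitochondrial arm, rose by 0.56 ± 0.11 with shRNA 1 and 0.44 ± 0.11 with shRNA 2, also per the authors' deposited tables. DFFA, the inhibitor of the apoptotic nuclease, fell by 0.53 (SE 0.13) with shRNA 1 and rose by 0.32 ± 0.12 with shRNA 2 in the authors' deposited tables, a call lost without the filter on low genes. Cytochrome c (CYCS) stood at -0.06 ± 0.10 with shRNA 1 and fell by 0.87 (SE 0.10) with shRNA 2 per the authors' deposited tables, and the kinase ROCK1, which drives membrane blebbing in apoptosis, stood at -0.0097 ± 0.10 with shRNA 1 and fell by 0.49 (SE 0.10) with shRNA 2. BID, the substrate that links caspase-8 to mitochondria, passed in neither comparison, at 0.22 ± 0.14 with shRNA 1 and 0.08 ± 0.14 with shRNA 2 in the authors' deposited tables.

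Among 12 other death receptors, decoys and ligands, 9 were listed in the tables and 5 and 6 had an adjusted p with shRNA 1 and shRNA 2. Of these 1 rose and 1 fell with shRNA 1 (median -0.11), and 1 rose and 2 fell with shRNA 2 (median -0.30), per the authors' deposited tables. The shares of all genes tested that rose and fell were 9.80% and 14.8% with shRNA 1, and 10.9% and 18.1% with shRNA 2. So few genes cannot be told from these shares. TNFRSF21 (DR6), a death domain receptor, fell by 0.78 (SE 0.24) with shRNA 1 and by 1.40 (SE 0.25) with shRNA 2 on the log2 scale in the authors' deposited tables. TNFRSF1B (TNFR2), a TNF receptor without a death domain, rose by 0.33 ± 0.11 with shRNA 1, a call lost when low genes were kept, and stood at -0.06 ± 0.11 with shRNA 2, per the authors' deposited tables. EDA2R, a receptor of ectodysplasin, was at 0.30 ± 0.16 with shRNA 1 and rose by 0.40 ± 0.16 with shRNA 2 in the authors' deposited tables, a call lost in the same way. TNFSF15 (TL1A), the ligand of DR3, was at -0.48 ± 0.57 with shRNA 1 and fell by 2.36 (SE 0.63, DESeq2 adjusted p = 0.00106) with shRNA 2 in the authors' deposited tables, at a low mean of 35.0 normalised counts over all libraries.

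A further list held 13 other TNF receptor superfamily genes, among them receptors of B lineage cells. Of the 13, 0 rose and 2 fell of 6 tested with shRNA 1 (median -0.21), and 1 rose and 3 fell of 10 tested with shRNA 2 (median -0.18), per the authors' deposited tables. All genes tested gave 9.80% risen and 14.8% fallen with shRNA 1, and 10.9% and 18.1% with shRNA 2. TNFRSF17 (BCMA), the plasma cell survival receptor, fell by 0.31 (SE 0.10) with shRNA 1 and by 1.71 (SE 0.10) with shRNA 2 in the authors' deposited tables. Its relative TNFRSF13B (TACI) fell by 1.14 (SE 0.11) with shRNA 1 and by 0.37 (SE 0.11) with shRNA 2 in the authors' deposited tables. TNFRSF14 (HVEM) was at -0.10 ± 0.10 with shRNA 1 and rose by 0.56 ± 0.10 with shRNA 2, and RELT was at 0.04 ± 0.15 with shRNA 1 and fell by 0.53 (SE 0.15) with shRNA 2, per the authors' deposited tables. CD40 passed in neither, at -0.42 ± 0.19 with shRNA 1 and -0.15 ± 0.19 (SE) with shRNA 2 in the authors' deposited tables.

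Of 9 transcription factors known to act on these receptor genes, 0 rose and 2 fell with shRNA 1 (median -0.05), and 2 rose and 3 fell with shRNA 2 (median 0.08), per the authors' deposited tables. Beside them, 9.80% of all genes tested rose and 14.8% fell with shRNA 1, and 10.9% and 18.1% with shRNA 2. FOXO3, an activator of TNFSF10, fell by 0.54 (SE 0.07) with shRNA 1 and by 0.34 (SE 0.07) with shRNA 2 in the authors' deposited tables. SP1 fell by 0.53 (SE 0.09) with shRNA 1 and was at 0.05 ± 0.09 with shRNA 2, per the authors' deposited tables. YY1, a repressor of TNFRSF10B and FAS, was at 0.11 ± 0.12 with shRNA 1 and fell by 0.60 (SE 0.12) with shRNA 2 in the authors' deposited tables. The stress factor DDIT3 (CHOP), an inducer of TNFRSF10B, passed in neither, at -0.47 ± 0.28 with shRNA 1 and 0.28 ± 0.27 with shRNA 2, and IRF1, which can activate TNFSF10 and CASP8, was at 0.14 ± 0.09 with shRNA 1 and rose by 0.21 ± 0.09 with shRNA 2 (adjusted p = 0.0497, lost without the filter on low genes), per the authors' deposited tables. These are transcript levels, and the activity of the factors was not measured.

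**Figure D4:**
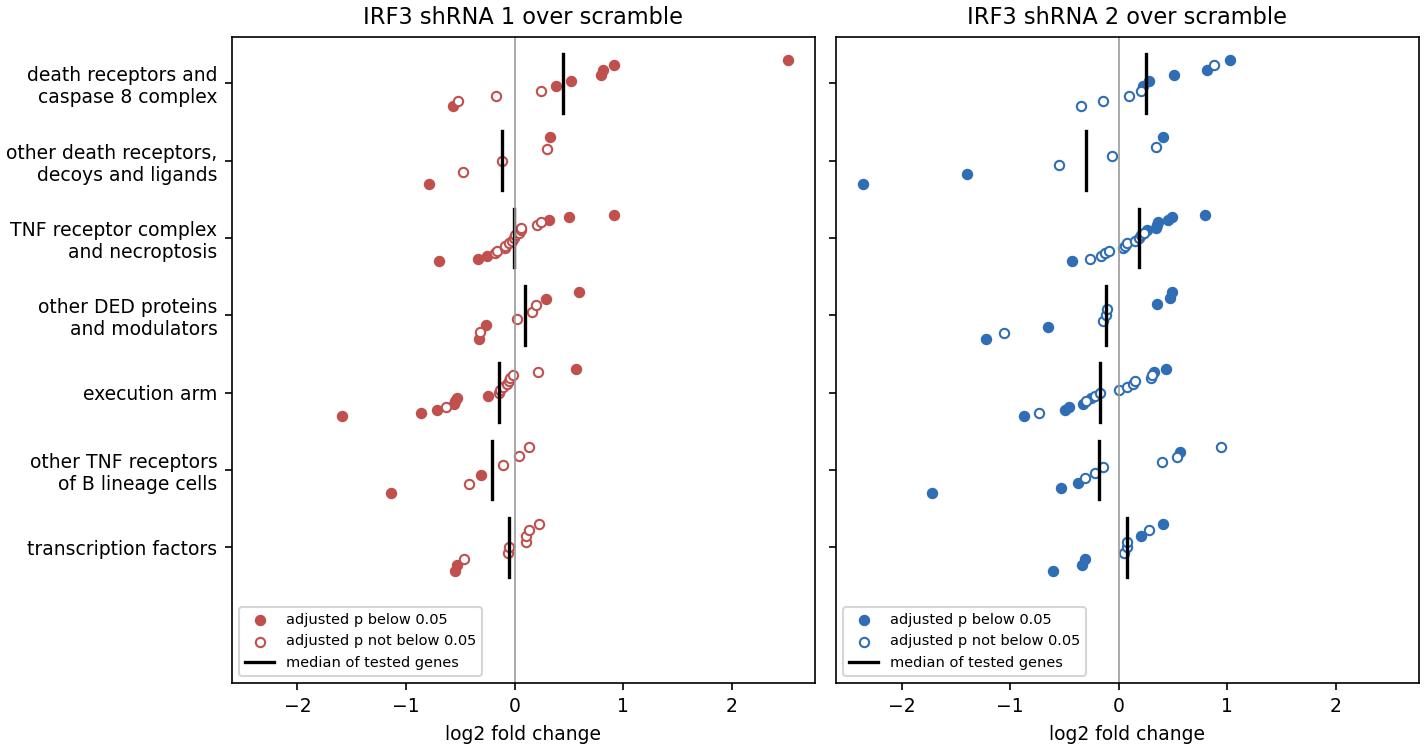
Log2 fold change over scramble of every tested gene (points) in 7 lists for IRF3 shRNA 1 (left) and IRF3 shRNA 2 (right), from the authors' deposited values, with the list median as a vertical bar; filled points have an adjusted p below 0.05. The 10 death receptor and caspase 8 complex genes have medians of 0.45 and 0.25, and the execution arm has medians of -0.14 and -0.17.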

How the data were processed

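Poly(A)-enriched RNA of MM.1S cells was sequenced from 6 libraries, 2 per arm, grouped by the hairpin in the labels. The submitters' processing notes name Salmon 0.12.0, DESeq2 1.24.0 and GRCh38 (hg38); settings, annotation, read length and strand use are not given in the sources used. Per the file headers, the 2 deposited tables hold the mean normalised count (a signal over all libraries), the log2 fold change and its SE, the Wald score, and p-values and adjusted p-values as the authors computed them. That deposited score equalled the ratio of fold change and SE to within 3.27e-07. The means were identical in both tables, as in 1 fit of all libraries.

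Group means and dispersions were reconstructed from the mean, both fold changes and both SEs, assuming equal size factors. The 2 dispersions of each of the 10 genes agreed within 3.37%. The direction, hairpin over scramble, was checked on 140 other genes, whose dispersions from both tables had a median absolute log ratio of 0.00648 in the coded direction and of 0.0444 to 0.294 with 1 or both signs turned. The main test was the authors' own, with genes lacking an adjusted p left out (the lowest mean with one was 26.8 with shRNA 1 and 11.8 with shRNA 2). Where a symbol had 2 identifiers, the one with the higher mean was used. Named genes were IRF3, the 10 genes, and from each list up to 4 with the lowest larger p and up to 2 with the lowest p of the difference. TNFRSF10C, RIPK3, MLKL, BID and the single markers of plasma cells and other cell types were added after their values were seen. Some genes and motifs covered by these rules are not reported here. The members, lists and tests were chosen with earlier results of these data known. Intervals are 95% normal intervals from the SE. Coordinates, exons and words of 31 bases on either strand came from GENCODE 29, which holds all 33095 identifiers. Python 3.11.15, pandas 2.3.3 and scipy 1.17.1 were used. Alternatives varied the threshold, the centring, a minimum size of change, the filter on low genes and the SE of the difference.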

Additional observations from a re-analysis of the deposited data

Results flagged for a closer look

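Several genes named above had hairpin effects that differed from each other in the z test of shRNA 2 against shRNA 1 on the authors' deposited log2 fold changes (adjusted p below 0.05), where 27.0% of all tested genes did so. Some genes of the pathway lists were named for a low p in this same test, so their passing it follows in part from that choice. The number of named genes that passed therefore cannot be set against that share. IRF3 itself differed by 1.35. Of the death receptor genes, TNFRSF10A differed by 0.66, TNFRSF1A by -0.66 and TNFRSF25 by -1.64, and the inhibitor CFLAR differed by 0.39. In the TNF receptor complex, RIPK1 and RNF31 each differed by 0.53. Of the modulators, DEDD2 differed by 0.82, ITCH by -0.43 and FAIM by -1.38. In the execution arm DFFA differed by 0.85, CYCS by -0.81 and ROCK1 by -0.48. Of the other TNF receptor genes, TNFRSF13B differed by 0.76, TNFRSF14 by 0.66, RELT by -0.57 and TNFRSF17 by -1.41. SP1 differed by 0.58 and YY1 by -0.71. Calls of RIPK1, RNF31 and RELT were lost when all genes with a p were adjusted together (adjusted p of 0.0724, 0.0917 and 0.0818). The fall of IRF3 itself was called with shRNA 1 and not with shRNA 2, and its part in these differences was not tested.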

How the results depend on the processing

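Of the 10 genes, 7 were called with shRNA 1 under both other thresholds, on recentring and without the filter on low genes, and 6 with a log2 fold change of 0.5 or more, where CASP8 dropped out. With shRNA 2 the 5 calls became 3 at an adjusted p below 0.01, without TNFRSF10D and CFLAR, and 3 with a fold change minimum of 0.5, without CASP8 and CFLAR. They became 4 without the filter on low genes and 6 at an adjusted p below 0.1 or on recentring, with TNFRSF25 added. The 4 calls of the difference between hairpins were kept in each alternative run. The pathway lists held 79 genes, not all of them tested. Over these lists, the 24 calls with shRNA 1 (7 higher, 17 lower) became 14 at an adjusted p below 0.01 and 15 with the fold change minimum. On recentring they became 20 (8 higher, 12 lower). The 32 calls with shRNA 2 became 10 with the fold change minimum. At the main setting, 24.6% of all genes tested were called with shRNA 1 and 29.0% with shRNA 2. The share of all genes called was not computed at the other settings, so the counts there cannot be set against it. ROCK1 with shRNA 1, not called, turned to 0.032 on recentring. Recentring shifts every log2 fold change by 0.04. Small changes of low transcripts such as TNFSF10 (SE 0.28) were not detectable. No paired analysis was possible because the tables hold no values of single libraries, and leaving out single libraries or running another count test was not possible for the same reason.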
